A study of Mus musculus with 18 samples.

Results

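The 10 chemokine genes described here, which serve monocyte, neutrophil and lymphocyte recruitment, were followed in the livers of high-fat-diet (HFD) fed male mice, namely *Ccl2*, *Ccr2*, *Ccl5*, *Ccl6*, *Ccl9*, *Cxcl1*, *Cxcl9*, *Cxcl10*, *Cxcl12* and *Cxcl13*. They were chosen by name as 10 of the 23352 gene symbols in the deposited tables, and all 10 had a mean over the 18 livers of at least 1 FPKM, a read density scaled to transcript length and to the mapped reads of the library. Liver mRNA of 9 wild-type and 9 *Gpr180*KO mice was measured, 1 library per mouse, all 20 weeks old. *Gpr180*KO mice carried a whole-body CRISPR/Cas9 deletion of exon 6 of *Gpr180*, made on the C57BL/6J background and bred to homozygosity, so blood cells carried the deletion as well as liver cells, and a truncated transcript could still be counted. The study asked how loss of GPR180 changed the livers of mice on this diet. Sample titles came in a pair of styles, called here series 1, with 4 wild-type and 4 *Gpr180*KO livers, and series 2, with 5 of each, and nothing in the labels says what the styles mark.

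*Gpr180* was 6.79 ± 1.99 FPKM in wild-type livers (SD, n = 9, from 4.46 to 9.24) and 1.60 ± 0.371 FPKM in *Gpr180*KO livers (from 0.876 to 1.99), with no overlap (log2 fold change -1.998, SE 0.18, limma adjusted p = 4.74e-06). Hepatocyte markers summed to 34472 FPKM or more in every library. Libraries summed to 554796 to 718746 FPKM, with the highest sum in KO51, and their depth relative to W317, read from the lowest values, was 60.8 to 100% in wild-type and 44.3 to 93.5% in *Gpr180*KO, with the lowest depth in KO319. The median log2 fold change of the 10835 genes tested was -0.13, and median-of-ratios scaling, which sets a typical gene equal between libraries, moved it to 0.02. Unless a scaling is named, the differences between genotypes below are of unscaled FPKM and include that shift.

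Chemokines are small secreted proteins that draw white blood cells along a gradient by binding receptors on their surface. CCL2 binds CCR2 and brings monocytes out of the bone marrow and into the fatty liver, where they become macrophages beside the resident Kupffer cells. CXCL1 calls neutrophils, CXCL9 and CXCL10 are interferon-induced ligands of CXCR3 on T cells, CXCL13 calls B cells, and CXCL12 is a constitutive product of stromal and endothelial cells.

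Of the 10 genes 2, *Ccr2* and *Cxcl1*, were lower in *Gpr180*KO livers and 0 were higher (limma on log2(FPKM + 0.1), Benjamini-Hochberg adjusted p under 0.05). Over all genes tested 4.28% were called lower and 0.452% higher. Without adjustment, 5 of the 10 had a limma p under 0.05, all in the direction of lower, and 0 were higher, against 22.2% of all genes tested in either direction. With median-of-ratios scaling these unadjusted counts were 5 lower and 1 higher, against 18% of all genes tested in either direction. The median log2 fold change of the 10 genes was -0.51, and 9 of 10 had a lower fitted mean in *Gpr180*KO, or 8 of 10 with median-of-ratios scaling, where *Ccl9* changed sign. Over all genes tested, 76.9% had a lower fitted mean, or 44.9% with median-of-ratios scaling. With RNA from whole liver, fewer cells of a type and less RNA per cell cannot be told apart.

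**Figure D1:**
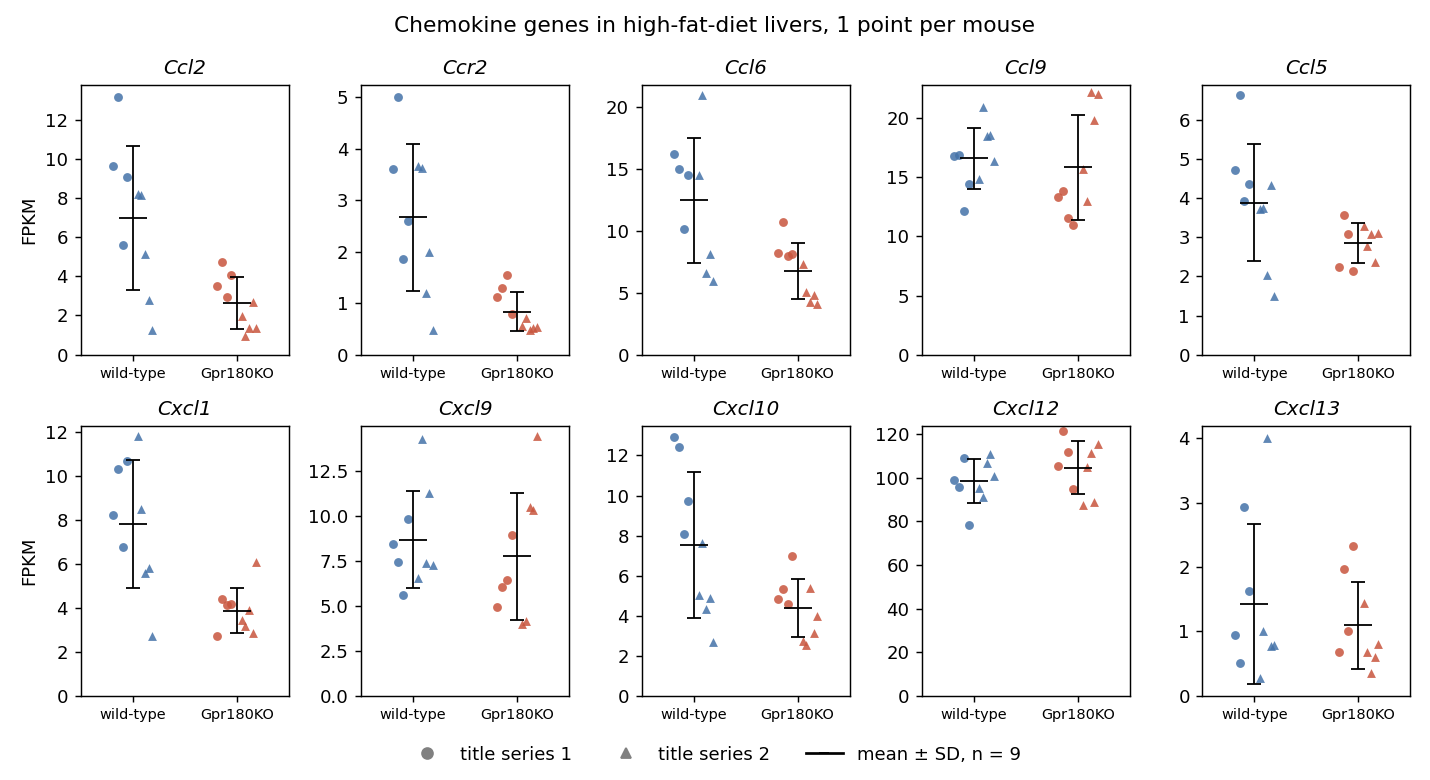
FPKM (vertical axis, from 0) of each gene in 9 wild-type and 9 *Gpr180*KO livers, 1 point per mouse, circles for series 1 and triangles for series 2, with mean and SD as bars. *Ccr2* (2.67 against 0.836 FPKM) and *Cxcl1* (7.82 against 3.88 FPKM) show the genotype difference, while the genotypes overlap for *Cxcl12* and *Ccl9*.

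The *Gpr180*KO mean of *Ccr2* alone was below 1 FPKM, so this gene met the minimum through the wild-type livers. *Ccr2*, the receptor of inflammatory monocytes for CCL2 (mm10 chr9:124102183-124109140, plus strand), was at 0.476 (lowest), 2.59 (median) and 5.01 (highest) FPKM in wild-type livers and at 0.479, 0.715 and 1.54 FPKM in *Gpr180*KO livers. The wild-type mouse W157 lay below every *Gpr180*KO mouse, and 7 of 9 wild-type mice lay above the highest *Gpr180*KO mouse. On average *Gpr180*KO livers held 31.3% of the wild-type amount (2.67 ± 1.43 against 0.836 ± 0.387 FPKM, n = 9 each, log2 fold change -1.43, SE 0.35, 95% interval -2.15 to -0.71, limma adjusted p = 0.0279).

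*Ccl2*, the main ligand of CCR2 (chr11:82035577-82037452, plus strand), was at 1.27, 8.15 and 13.2 FPKM in wild-type livers and, in *Gpr180*KO, 0.976, 2.69 and 4.75 FPKM. All 9 *Gpr180*KO mice were below the wild-type median, and 7 of 9 wild-type mice were above the highest *Gpr180*KO mouse. On average *Gpr180*KO livers held 37.6% of the wild-type amount (6.997 ± 3.67 against 2.63 ± 1.31 FPKM, log2 fold change -1.29, SE 0.38, 95% interval -2.09 to -0.49), but the limma adjusted p of 0.0558 did not pass. Ligand and receptor thus had differences of like size, of which only that of the receptor passed the threshold.

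*Ccl6* and *Ccl9* are mouse CC chemokines made largely by myeloid cells and binding CCR1, and they lie side by side on chromosome 11 (*Ccl9* chr11:83572917-83578636, *Ccl6* chr11:83587886-83593087, both minus strand, 9249 bases apart). *Ccl6* was at 5.98, 14.5 and 20.9 FPKM in wild-type livers, against 4.10, 7.34 and 10.7 FPKM in the *Gpr180*KO group, and 4 of 9 *Gpr180*KO mice lay below every wild-type mouse (54.1% of wild-type, log2 fold change -0.84, SE 0.24, limma adjusted p = 0.0510). *Ccl9* was at 12.2, 16.8 and 20.9 FPKM against 10.96, 13.9 and 22.3 FPKM, with *Gpr180*KO mice at both ends of the range (log2 fold change -0.10, 95% interval -0.40 to 0.20). The difference between the neighbours, *Ccl6* minus *Ccl9* on the log2 scale, differed by -0.74 in *Gpr180*KO (two-sided exact permutation test, n = 9 each, p = 0.0539, adjusted 0.108 over 2 neighbour pairs picked after their values were seen). The 2 genes were therefore not shown to differ in response.

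*Ccl5*, a ligand of CCR1 and CCR3 made by T cells and macrophages (chr11:83525779-83530518, minus strand), was at 1.496, 3.92 and 6.65 FPKM in wild-type livers, against 2.13, 3.09 and 3.58 FPKM in the *Gpr180*KO group. Its spread was wider in wild-type (coefficient of variation 38.5%) than in *Gpr180*KO (17.6%), a difference that was not tested, and 7 of 9 wild-type mice lay above the highest *Gpr180*KO mouse. The difference did not pass (log2 fold change -0.34, 95% interval -0.78 to 0.10, limma adjusted p = 0.342).

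*Cxcl1*, a neutrophil chemoattractant (chr5:90891245-90893115, plus strand), was at 2.71, 8.22 and 11.8 FPKM in wild-type livers, against 2.72, 3.89 and 6.09 FPKM in the *Gpr180*KO group. Apart from W157, which was the lowest of all 18 mice, every wild-type mouse was above 5 FPKM, and 8 of 9 *Gpr180*KO mice were below it. The mean fell to 49.6% of wild-type (7.82 ± 2.89 against 3.88 ± 1.02 FPKM, log2 fold change -0.92, SE 0.22, 95% interval -1.39 to -0.45, limma adjusted p = 0.0285).

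*Cxcl9* and *Cxcl10*, the CXCR3 ligands, are neighbours on chromosome 5 (*Cxcl9* chr5:92321331-92328079, *Cxcl10* chr5:92346639-92348889, both minus strand, 18559 bases apart). *Cxcl10* was at 2.68, 7.65 and 12.9 FPKM in wild-type livers, against 2.55, 4.58 and 6.97 FPKM in the *Gpr180*KO group, with all 9 *Gpr180*KO mice below the wild-type mean (58.3% of wild-type, log2 fold change -0.67, SE 0.27, limma adjusted p = 0.152). *Cxcl9* was at 5.58, 7.42 and 14.3 against 3.99, 6.43 and 14.4 FPKM, and the highest *Gpr180*KO mouse was KO56 (log2 fold change -0.23, 95% interval -0.72 to 0.25). *Cxcl10* minus *Cxcl9* was different by -0.44 on the log2 scale in *Gpr180*KO, which did not pass (exact permutation p = 0.216).

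*Cxcl12*, the ligand of CXCR4 that keeps leukocytes and progenitors in their niches (chr6:117168535-117181368, plus strand), was by far the most abundant of the 10, at 78.6, 99.2 and 111 FPKM in wild-type livers, against 87.5, 105 and 121.6 FPKM in the *Gpr180*KO group. Its coefficient of variation of 10.2% in wild-type was the lowest of the 10 genes (log2 fold change 0.08, 95% interval -0.09 to 0.26, limma adjusted p = 0.550). With median-of-ratios scaling its difference was 0.24, with a limma adjusted p of 0.124. *Cxcl13*, the B-cell follicle chemokine (chr5:95956939-95961068, plus strand), was the least abundant in wild-type, at 0.277, 0.938 and 3.997 FPKM against 0.354, 0.801 and 2.33 FPKM (log2 fold change -0.18, 95% interval -1.03 to 0.68). Its highest value, 3.997 FPKM, was in the wild-type mouse W134, which was low for *Ccl5*, *Ccl6* and *Ccr2*.

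**Figure D2:**
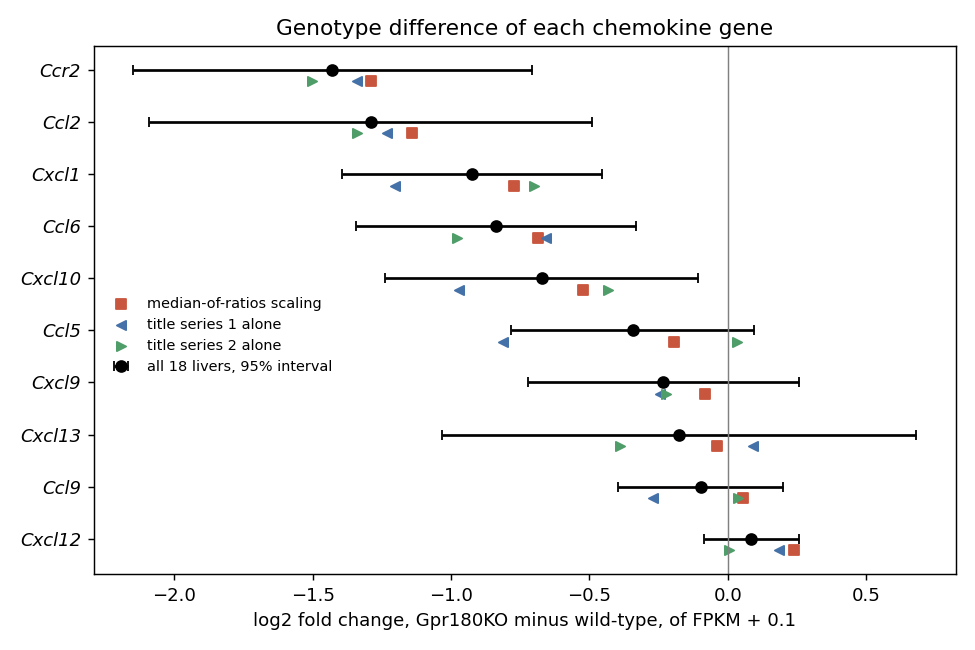
Log2 fold change of FPKM + 0.1, *Gpr180*KO minus wild-type, for each gene (black points, 95% interval over 18 livers), with median-of-ratios scaling and each series alone as coloured marks. *Ccr2*, *Ccl2*, *Cxcl1*, *Ccl6* and *Cxcl10* have intervals below 0, and *Cxcl12* is the only black point above 0, where *Ccl9* also lies with median-of-ratios scaling or in series 2 alone.

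In wild-type livers the order by FPKM, which is per length, was *Cxcl12*, *Ccl9*, *Ccl6*, *Cxcl9*, *Cxcl1*, *Cxcl10*, *Ccl2*, *Ccl5*, *Ccr2* and *Cxcl13*. Only *Cxcl12* did not overlap with the next gene, and the other neighbours in the order overlapped in range. *Ccr2* was the last in *Gpr180*KO, below *Cxcl13*. The interval printed beside each value spanned a median of 4.08% of the value to either side for *Cxcl12* and 49.9% for *Cxcl13*. Its width did not simply follow FPKM, being 23.97% for *Ccr2* against 34.0% for *Ccl2* and 28.1% for *Cxcl1*, both of higher FPKM.

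Promoter sequences of 8 of the 10 genes were read from RefSeq (GRCm38.p6), those of *Ccl2* and *Ccl5* were not analysed here, and all 8 start sites equalled those of the files. Below are the 250 bases upstream of *Cxcl1* (which fell), *Cxcl10* and *Cxcl9*, the latter pair being the neighbouring CXCR3 ligands, read 5′ to 3′ on the strand of the gene, with capitals marking matches to the NF-kB consensus or to the core of the interferon-stimulated response element (GAAA, 2 bases of any kind, GAAA).
Cxcl1 (chr5:90890995-90891244, plus): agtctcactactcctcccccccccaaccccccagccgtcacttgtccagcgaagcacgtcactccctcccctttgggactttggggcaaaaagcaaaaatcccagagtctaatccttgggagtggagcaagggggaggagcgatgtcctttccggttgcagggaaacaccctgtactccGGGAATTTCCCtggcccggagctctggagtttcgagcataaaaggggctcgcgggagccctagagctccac
Cxcl10 (chr5:92348890-92349139, minus): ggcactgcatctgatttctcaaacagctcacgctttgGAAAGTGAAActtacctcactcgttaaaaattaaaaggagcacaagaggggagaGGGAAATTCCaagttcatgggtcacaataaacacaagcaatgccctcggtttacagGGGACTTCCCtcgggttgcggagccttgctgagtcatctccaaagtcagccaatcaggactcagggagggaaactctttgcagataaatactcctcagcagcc
Cxcl9 (chr5:92328080-92328329, minus): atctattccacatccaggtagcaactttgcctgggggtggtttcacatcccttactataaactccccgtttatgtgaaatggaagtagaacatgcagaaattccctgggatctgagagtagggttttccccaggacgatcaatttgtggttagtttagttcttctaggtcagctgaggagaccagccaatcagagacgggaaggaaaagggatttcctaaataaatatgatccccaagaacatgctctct

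Searched on both strands, the NF-kB consensus stood at -71 to -62 of *Cxcl1* (read on the other strand it matched again at -70 to -61, overlapping) and at -159 to -150 and -103 to -94 of *Cxcl10*, and the interferon-stimulated response element stood at -213 to -204 of *Cxcl10*. *Ccl9* held a single NF-kB match (-35 to -26), and *Cxcl9*, *Ccr2*, *Ccl6*, *Cxcl12* and *Cxcl13* held none of these letters in the same window. Of 32851 promoters, 3.90% held the NF-kB consensus, 2.98% the interferon-stimulated response element, and 7.02% TTCNNNGAA, the gamma-activated site, which none of the 8 genes held. A match is a description of these letters and not of a bound site.

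The overlap of the genotypes was also read within each series. In series 1 every *Gpr180*KO mouse lay below every wild-type mouse for *Ccl2*, *Ccr2*, *Ccl5*, *Cxcl1* and *Cxcl10* (5 of 10 genes, against 11.5% of all genes tested). In series 2 this held for none of the 10. The share over all genes was not computed for series 2. Full separation is also harder to reach with 5 mice per genotype than with 4, so the counts of the series cannot be compared. The log2 fold changes in series 1 and series 2 were -1.34 and -1.50 for *Ccr2*, -1.23 and -1.34 for *Ccl2*, -1.20 and -0.70 for *Cxcl1*, and -0.66 and -0.98 for *Ccl6*. *Ccl2* in series 1 was 9.62, 13.2, 5.62 and 9.08 FPKM in wild-type livers, against 3.52, 4.75, 2.97 and 4.06 FPKM in the *Gpr180*KO group. In series 2 it was 8.18, 8.15, 5.13, 2.77 and 1.27 FPKM in wild-type livers, against 1.99, 0.976, 1.37, 2.69 and 1.38 FPKM in the *Gpr180*KO group, where W157 (1.27 FPKM) lay inside the *Gpr180*KO range. *Ccr2* in series 2 was 3.66, 3.62, 1.20, 1.99 and 0.476 FPKM in wild-type livers, against 0.549, 0.715, 0.479, 0.519 and 0.539 FPKM in the *Gpr180*KO group, again with W157 apart from the other wild-type mice.

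The genes also differed between series. With genotype held, series 2 was lower than series 1 for *Ccl2* (log2 difference -1.14, limma adjusted p = 0.0102), *Ccr2* (-0.85, 0.0459), *Ccl6* (-0.62, 0.0346) and *Cxcl10* (-0.90, 0.00247), and higher for *Ccl9* (0.40, 0.0175). With the series as a block, 5 of the 10 genes were lower in *Gpr180*KO, against 9.52% of all genes tested: *Ccr2* (limma adjusted p = 0.00744), *Ccl2* (0.0113), *Cxcl1* (0.0141), *Ccl6* (0.0148) and *Cxcl10* (0.0262). With median-of-ratios scaling 1 was lower, *Ccr2* (limma adjusted p = 0.0379), against 1.36% of all genes, and *Cxcl1* had 0.0548. A difference of the genotype effect between series was called for 0 of 10 genes by limma (0% of all genes, and 833 of 10835 genes at an unadjusted p under 0.05), and 1 of the 10, *Ccl5*, had an unadjusted p of 0.0343 (adjusted 0.641).

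**Figure D3:**
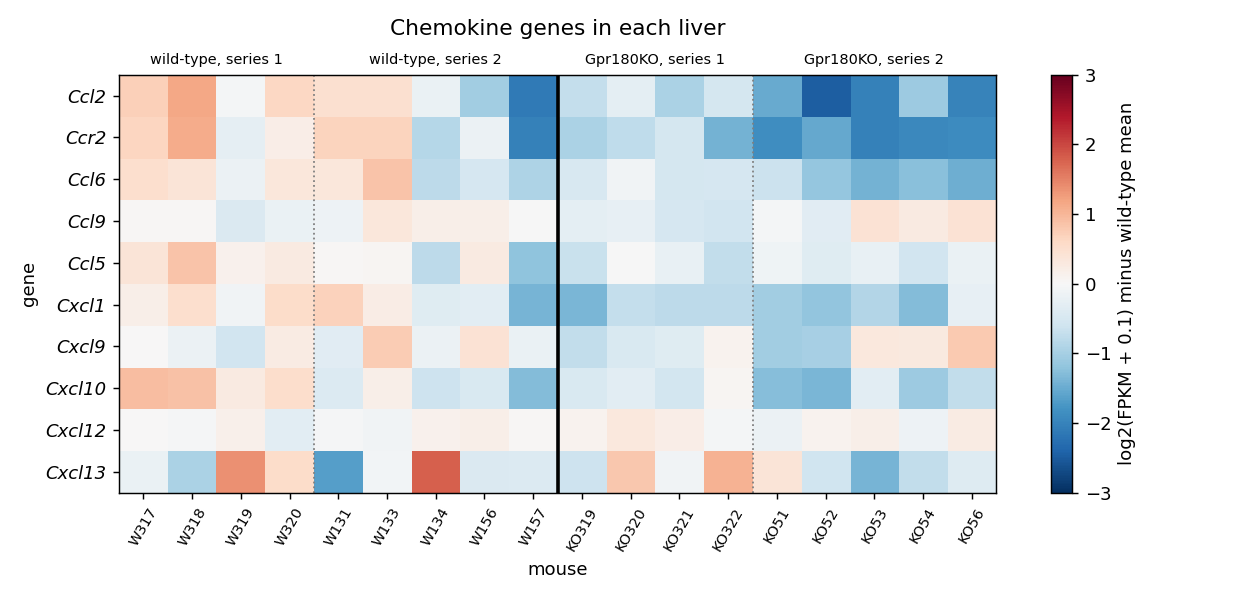
Log2(FPKM + 0.1) minus the wild-type mean for 10 genes (rows) in 18 mice (columns), red above and blue below, with the genotypes parted by a black line. W157 is blue like the *Gpr180*KO mice for *Ccl2* (1.27 FPKM), *Ccr2* (0.476 FPKM) and *Cxcl1* (2.71 FPKM), and *Cxcl12* is near white throughout.

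The number of calls changed with single libraries, among all genes as among these. Leaving out any of the wild-type mice W317, W318 or W133 or the *Gpr180*KO mice KO52, KO53 or KO54 left 0 of the 10 genes called lower by limma (4 to 5 at an unadjusted p under 0.05), while the share of all genes called lower was 1.07 to 1.85%. The log2 fold changes then lay between -1.29 and -1.42 for *Ccr2* and between -0.86 and -0.93 for *Cxcl1*. Leaving out W320 left 1, with 1.99% of all genes. Leaving out W157 gave 5, *Ccr2*, *Cxcl1*, *Ccl2*, *Ccl6* and *Cxcl10*, with 7.79% of all genes called lower. W157 was lowest of the wild-type mice for *Ccl2*, *Ccr2*, *Ccl5*, *Ccl6*, *Cxcl1* and *Cxcl10*, and also for the summed macrophage (351.6 FPKM), neutrophil (3.94 FPKM) and stellate cell (266.9 FPKM) markers, and the part of these cells in its chemokine values was not tested.

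**Figure D4:**
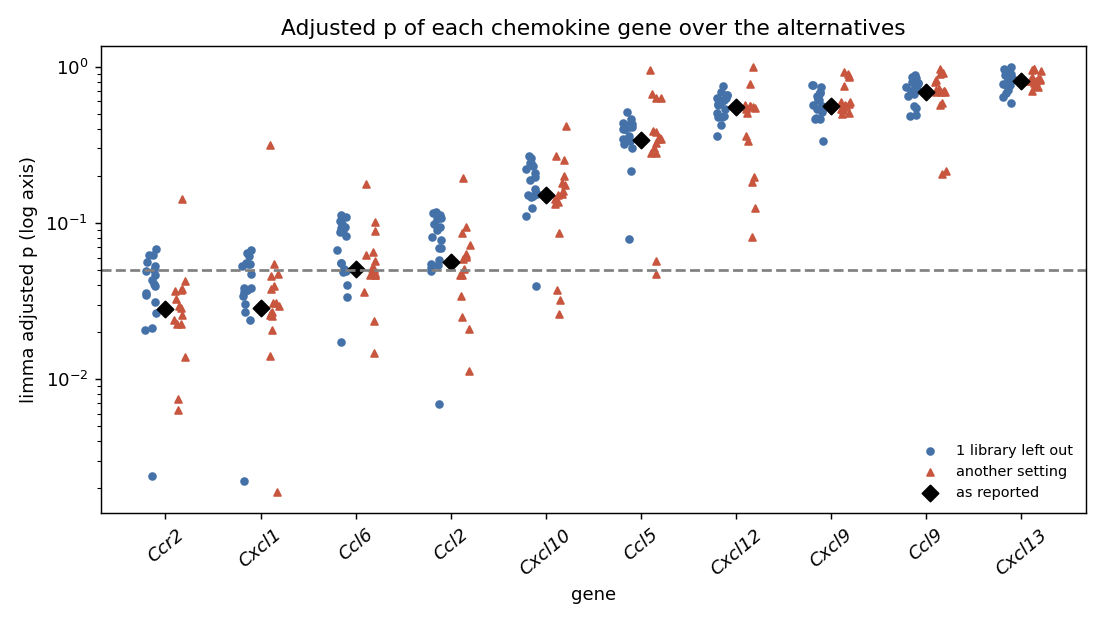
Limma adjusted p (log axis) of each gene as reported (black), with 1 library left out (blue) and under other settings (red), with the dashed line at 0.05. *Ccr2* (0.0279) and *Cxcl1* (0.0285) sit on both sides of the line, and *Cxcl9*, *Ccl9*, *Cxcl12* and *Cxcl13* stay above it in every setting drawn.

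Among mice of the same genotype some of the genes varied together. Over 45 pairs, correlated on log2 values with the genotype means taken out (18 mice, 100000 permutations within genotype), 13 passed for r, adjusted over the 45, and 4 of these also passed for rho. *Ccr2* and *Ccl6* had r = 0.847 and rho = 0.837 (p = 1e-05 for r, the smallest these permutations can give, and 7e-05 for rho, adjusted 0.00045 and 0.0018), and r was 0.854 without the 2 mice farthest out, with rho 0.680 within series. For *Ccl2* and *Ccl6*, r was 0.825 and rho 0.845 (permutation adjusted p of rho 0.0018, r without the 2 farthest 0.807, rho within series 0.721). *Ccl2* and *Ccr2* (r 0.816, rho 0.738, adjusted p of rho 0.0104, without the 2 farthest 0.742) and *Ccl2* and *Cxcl10* (0.770, 0.771, 0.0078 and 0.596) were weaker within series, with rho of 0.439 and 0.496. The permutations did not hold series, so these p values also carry differences between series. Some other pairs had a higher rho within series than over all mice, and none was tested there. For *Ccr2* and *Ccl5* it was 0.814 against 0.459, for *Cxcl9* and *Cxcl10* 0.713 against 0.298.

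Genes that followed each of these most closely, by Spearman correlation over the 18 libraries with genotype means removed (a description that shares depth and series), were *Mmp12*, the macrophage elastase, for *Ccl6* (rho 0.91), *Atf3*, a stress-induced transcription factor, and 1810032O08Rik for *Ccl2* (0.89 and 0.90), and *Ckap4* for *Ccr2* (0.90). *Tgtp1*, *Tgtp2* and *Gbp2*, interferon-induced GTPases, followed *Cxcl9* (0.90, 0.82 and 0.81). The closest gene was *Tmem60* for *Ccl5* (rho 0.80), 9530068E07Rik for *Ccl9* (0.90), *Ifi205* for *Cxcl1* (0.80), *Adcy4* for *Cxcl10* (0.87), *Zfp275* for *Cxcl12* (0.81) and *Nprl2* for *Cxcl13* (0.82). *Mmp12* was itself lower in *Gpr180*KO (log2 fold change -1.92, limma adjusted p = 0.0404), as was *Ckap4* (-0.80, 0.0209), while *Tgtp1* was 0.32 higher with an adjusted p of 0.531.

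Of the other chemokine ligands, 7 of the 27 in the tables had a mean of at least 1 FPKM and 0 passed in either direction (limma). Of the 18 other receptors in the tables only 1 reached that minimum, and it did not pass. At a minimum mean of 0.1 FPKM, where 5.54% of 14016 genes were called lower, 3 of 21 ligands and 3 of 14 receptors were lower and 0 higher. The genes below were named after their values were seen. *Ccl7*, another ligand of CCR2, was 1.54 ± 0.971 FPKM in wild-type livers, against 0.398 ± 0.281 FPKM in the *Gpr180*KO group (limma adjusted p = 0.0384), *Cxcl14* was 1.10 and 0.483 FPKM (0.0328) and *Cxcl5* 0.279 and 0.0441 FPKM (0.0384). *Ccr1*, the receptor of CCL6, CCL9 and CCL5, was 0.588 ± 0.410 and 0.0656 ± 0.0697 FPKM (limma adjusted p = 0.00558), *Cx3cr1*, the fractalkine receptor of patrolling monocytes, 1.15 and 0.369 FPKM (0.0228), and *Cxcr4*, the receptor of CXCL12, 1.18 and 0.491 FPKM (0.0299). *Ccr1* and *Cxcl5* reached the minimum through the wild-type livers. *Cxcr3*, the receptor of CXCL9 and CXCL10, was 0.272 and 0.302 FPKM (0.578).

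The counts per list below stand beside 4.28% of all genes tested called lower and 0.452% higher. Some genes met the minimum mean of 1 FPKM only through the wild-type livers. Of those called lower these were *Tnfaip3*, *Sox9* (0.8595 FPKM in *Gpr180*KO), *Pdgfra* (0.892 FPKM) and *Timp1* (0.544 FPKM). *Retnlg* and *Ly6c2*, which were not called, met it the same way. Of genes for adhesion and homing, 3 of 10 were lower and 0 higher. They were *Icam1*, the integrin ligand on activated endothelium (6.16 and 3.31 FPKM, limma adjusted p = 0.0297), *Vcam1* (7.84 and 5.15 FPKM, 0.0342) and *Selplg*, the selectin ligand of leukocytes (1.95 and 1.23 FPKM, 0.0490). In inflammatory signalling 4 of 17 were lower and 0 higher, *Tnfaip3*, an inhibitor of NF-kB (1.74 and 0.862 FPKM), *Tnfrsf1a*, a TNF receptor (40.1 and 30.8 FPKM), *Cd14* (3.95 and 1.92 FPKM) and *Tlr2* (1.93 and 1.21 FPKM), which sense bacterial products. In interferon-gamma signalling 1 of 14 was lower, *Ifngr2* (12.7 and 9.55 FPKM), with *Irf1*, a transcription factor of the interferon response, at 16.1 and 15.8 FPKM. With median-of-ratios scaling 1 of 10 adhesion genes, 1 of 17 inflammatory genes and 0 of 14 interferon-gamma genes were lower, against 1.36% of all genes. Of the macrophage and monocyte markers 1 of 18 was lower, *Cd68* (19.4 and 11.9 FPKM, limma adjusted p = 0.0257), and *Ly6c2*, a marker of inflammatory monocytes, was 2.05 and 0.908 FPKM (0.121), while the Kupffer cell markers *Clec4f* (43.9 and 48.1 FPKM), *Cd5l* (70.8 and 58.8 FPKM) and *Vsig4* (32.8 and 27.5 FPKM) did not pass. Of the 18, 15 had a lower fitted mean, as did 76.9% of all genes tested. The macrophage markers summed to 351.6 to 795 FPKM in wild-type (median 641.6) and 387.8 to 588.8 FPKM in *Gpr180*KO (median 451.4). None of them was at 0 in any library (*Adgre1*, *Chil3* and *Spi1* were not used here). Of the neutrophil markers 0 of 3 passed, though all 3 had an unadjusted limma p under 0.05, with *S100a8* at 9.31 and 3.27 FPKM, *S100a9* at 6.89 and 3.01 FPKM and *Retnlg* at 2.71 and 0.772 FPKM. At a minimum of 0.1 FPKM *Csf3r*, a growth factor receptor of neutrophils, was lower (1.26 and 0.596 FPKM, limma adjusted p = 0.00551). These markers summed to 3.94 to 41.4 FPKM in wild-type (median 22.4) and 4.43 to 12.2 FPKM in *Gpr180*KO (median 7.87), with *Camp* and *Mpo* at 0 in 13 libraries each and *Ltf* in 12. Of the stellate cell and fibroblast markers 8 of 17 were lower, among them *Lum* (8.39 and 3.06 FPKM) and *Dcn* (144.5 and 89.7 FPKM), and they summed to 266.9 to 443.1 and 160.1 to 273.8 FPKM. For T and NK cells 0 of 1, dendritic cells 0 of 2, sinusoidal endothelium 0 of 12, bile duct 2 of 3 (*Sox9* and *Spp1*) and hepatocytes 1 of 15 were lower. At a minimum of 0.1 FPKM 3 of 7 bile duct genes were lower, against 5.54% of all genes. The duct markers *Krt19*, *Krt7* and *Epcam* did not pass there (limma adjusted p = 0.351, 0.329 and 0.1005). No B cell marker reached a mean of 1 FPKM over all 18 livers. The part of any of these cell types in the chemokine values was not tested.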

How the data were processed

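Liver poly(A) RNA of 18 HFD-fed male mice was sequenced as single reads on a NextSeq500, and the authors deposited FPKM values per gene, the output of the TopHat Alignment application (mm10). Its gene annotation is not given in the sources used here. FPKM carries no counts, so depth was known only relative to W317. Rows sharing a symbol were summed, and 24 of 23352 symbols with a failed estimate (190 values, none in the 10 genes) were left out. Of the 180 values of the 10 genes, 4 lay outside the interval printed beside them.

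Genotypes, taken from the sample labels, were compared with limma 3.58.1 (R 4.3.3, lmFit and eBayes with trend) on log2(FPKM + 0.1) for 10835 genes with a mean of at least 1 FPKM, adjusted by Benjamini-Hochberg over all of them. Fold changes are on that scale and understate changes of low genes. Correlations and permutation tests used Python 3.11.15, numpy 2.4.6, pandas 2.3.3 and scipy 1.17.1, and figures matplotlib 3.10.9. In simulated data with 200 of 10835 genes changed by 1.5 on the log2 scale, 98% were recovered and 2.5% of calls were unchanged genes. That change was larger than the one reported for any of the 10 genes, and no series shift was simulated. The recovery therefore does not carry over to them. A rule allowed the naming of all 10, *Gpr180*, the 3 genes most like each, up to 4 called genes per list and defining markers, of which some are given, and other genes, such as *Cxcr3* and *Irf1*, were chosen after their values were seen. Members and lists were chosen with earlier results of these data known. Each library is 1 mouse, and mouse numbers did not pair the genotypes. Alternatives were pseudocounts, FPKM minimums, scalings, the series as a block or alone, eBayes settings, library weights and each library left out. Single values of some listed genes are not reported here.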

Additional observations from a re-analysis of the deposited data

How the results depend on the processing

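The count of genes called lower, 2 of 10 as reported, was 4 with a pseudocount of 1, 1 with a minimum of 5 FPKM (6 of the genes tested), 1 with median-of-ratios scaling, 4 with TPM scaling, 5 with the series as a block, 4 with the block and median-of-ratios scaling, 5 in series 1 alone, 0 in series 2 alone and 6 with library weights. Leaving out each library gave 0 to 5. The share of all genes called lower moved too, from 4.28% to 4.95% with a pseudocount of 1 or TPM scaling, 2.97% at 5 FPKM, 1.36% with median-of-ratios scaling, 9.52% with the block (3.06% with both), 4.5% in series 1 alone, 10.7% with library weights and 1.07 to 7.79% with each library left out. In series 2 alone limma called 0 genes of all 10835 (2019 at an unadjusted p under 0.05, 3 of the 10 genes among them). Without KO51 and KO319, the libraries with the highest FPKM sum and the lowest depth, chosen after seeing the data, the count was 3 (7.81% of all genes). No gene of the 10 was called higher in any setting run. The adjusted p of *Ccr2* lay between 0.00238 and 0.142 and that of *Cxcl1* between 0.00190 and 0.316, both highest in series 2 alone, and the log2 fold change of each stayed negative. *Gpr180* in series 2 alone had -1.94 (limma adjusted p = 0.0655). The sign turned for *Ccl5* 0.032 in series 2 alone, *Ccl9* 0.054 with median-of-ratios scaling (0.054 also with the block), 0.022 with 75th percentile scaling and 0.038 in series 2 alone, and *Cxcl13* 0.089 in series 1 alone, 0.13 with library weights and -0.38 (without W131) to 0.047 (without W134) with each library left out. With median-of-ratios scaling 147 genes were called lower and 146 higher, against 464 and 49 as reported. The cause of these changes was not tested. No paired analysis was possible because only 2 mouse numbers occur in both genotypes and the labels do not tie those mice together. Depth and the low FPKM of *Cxcl13*, *Ccr2* and *Ccl5* limit what can be seen for them.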
